A study of Mus musculus with 16 samples.

Results

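The transcripts of 10 genes of the Z-disc and of the muscle response to stretch (Ankrd1, Ankrd2, Csrp3, Xirp1, Myoz1, Myoz2, Tcap, Ldb3, Ttn and Neb) were followed in the gastrocnemius of mice with cancer cachexia. They were chosen by gene symbol, make up 10 of the 21923 genes in the expression table, and all 10 passed the filter on low counts in every comparison. Gastrocnemius RNA was sequenced from 16 mice in 4 groups of 4. NOR mice were normal controls given PBS, CAC mice carried a subcutaneous tumor and were injected with PBS, AM mice carried the same tumor and received amiloride at 2 mg/kg by daily intraperitoneal injection from day 9, and KD mice carried tumor cells in which Rab27 had been knocked down and were given PBS. All were sacrificed on day 30. In each group 2 mice were labelled C57BL/6, the strain given LLC lung carcinoma cells, and 2 were labelled BABL/c, the spelling of BALB/c in the labels and the strain given CT26 colon carcinoma cells. Strain and tumor line therefore change together, and their parts cannot be told apart. The knock-down lay in the injected tumor cells and not in the muscle. The mice were young adults, and the labels describe the BALB/c mice as male and female and the C57BL/6 mice as male, without a sex for each library, whereas the study's methods name males of both strains.

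The Z-disc is the plate that borders each sarcomere, the repeating unit of a muscle fibre. Thin actin filaments are anchored in it by alpha-actinin, the giant protein titin (Ttn) runs from it to the M-band at the middle of the sarcomere, and nebulin (Neb) runs along the thin filament. Small proteins bound to the titin end and to alpha-actinin carry signals as well as force: Ankrd1 and Ankrd2 are ankyrin-repeat proteins whose transcripts are induced by stretch and injury, and Csrp3 (muscle LIM protein) and Tcap (telethonin) sit in the same complexes. Myoz1 and Myoz2 (calsarcin-2 and calsarcin-1) bind calcineurin and are known as the fast-fibre and slow-fibre forms, Ldb3 (ZASP, Cypher) is a PDZ-LIM scaffold that binds alpha-actinin, and Xirp1 (Xin) is an actin-binding protein of damaged and remodelling fibres.

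Promoter sequence is shown for the 3 genes with the highest log2 fold changes in CAC, Ankrd1, Ankrd2 and Myoz2, because any shared motif would be looked for there first. RefSeq promoters (GRCm38.p6) were matched for 6 of the 10 genes. The 250 bases before the RefSeq start are given for Ankrd2 and Myoz2, on the gene's own strand, with motif matches in capitals. For Ankrd1, whose window lies inside a longer annotated first exon, only the 30 bases round each match are given. The last 27 bases shown for Ankrd2 and the last 28 for Myoz2 also lie inside the annotated gene.
Ankrd1, chr19:36120037-36120066, minus strand: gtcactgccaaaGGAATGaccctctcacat
Ankrd1, chr19:36119950-36119979, minus strand: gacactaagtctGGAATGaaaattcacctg
Ankrd2, chr19:42035777-42036026, plus strand: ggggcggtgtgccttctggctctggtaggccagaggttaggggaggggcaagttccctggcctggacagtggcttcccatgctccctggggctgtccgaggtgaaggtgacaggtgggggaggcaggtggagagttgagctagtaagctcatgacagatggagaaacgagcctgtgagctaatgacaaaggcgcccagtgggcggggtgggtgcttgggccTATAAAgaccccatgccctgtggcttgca
Myoz2, chr3:123034988-123035237, minus strand: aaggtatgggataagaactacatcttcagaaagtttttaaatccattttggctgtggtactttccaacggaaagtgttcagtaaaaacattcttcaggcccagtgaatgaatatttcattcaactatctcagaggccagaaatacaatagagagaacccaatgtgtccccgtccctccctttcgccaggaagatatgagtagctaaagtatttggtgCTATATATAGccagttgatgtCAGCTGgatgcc
The capitals in the Ankrd1 windows are the MCAT box CATTCC read on the other strand, the element bound by TEAD factors, at bases -210 to -205 and -123 to -118 from the start. This word was present on either strand in 12.6% of the 32851 promoters of the same length. The capitals for Ankrd2 are TATAAA at bases -29 to -24, found in 12.4% of promoters. Myoz2 held a MEF2 site at -33 to -24, found in 2.92% of promoters, and an E-box of the form CAGCTG at -12 to -7, found in 13% of promoters. The CArG box, found in 1.47% of promoters, had no match in these windows. No motif of the 5 searched for was shared by these 3 promoters, and a match is a description of letters, not of binding.

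Markers of skeletal muscle were abundant in every library. The summed level of 8 genes of skeletal muscle (Ckm, Acta1, Myh4, Mylpf, Tnnt3, Pygm, Ckmt2 and Mb) ranged from 52600 to 174000 CPM (counts scaled to library size by the TMM method). Library totals ranged from 35913190 to 61032708 counts. CAC replicate 3 had the lowest muscle sum, at 52600 CPM, against 122000 to 174000 CPM in NOR. Some libraries stood apart from the others: 1 of the 2 identifiers of Nnt, a mitochondrial transhydrogenase that differs between C57BL/6 substrains, was at 44.0 to 112 CPM in CAC replicate 4, AM replicates 1 and 3 and KD replicate 1 and at most 21.5 CPM in the other 12, a split that does not follow the labelled strain. The other identifier was at 98.1 to 202 CPM in the first 3 of these libraries, but at 50.7 CPM in KD replicate 1, below KD replicates 2 and 3 at 55.5 and 60.3 CPM, so that it does not set KD replicate 1 apart. H2-K1, an MHC class I gene whose alleles differ between mouse strains, was at 67.5 to 116 CPM in the same 4 libraries, lowest in KD replicate 1, and at 187 to 870 CPM in the other 12. KD replicate 2 had a trend against long transcripts, with a shift of -0.63 (log2) at the length of Ttn, while the other 15 libraries lay between -0.05 and 0.21. Summed lymphocyte markers were at 0.447 to 3.18 CPM in NOR replicate 1, CAC replicates 1 and 4 and KD replicates 2 and 3 and at 33 to 383 CPM in the other 11. In bulk muscle, fewer cells of a type and less RNA per cell cannot be told apart.

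Levels between genes were compared per length, as the deposited FPKM (fragments per kilobase of transcript, scaled to library size). In NOR mice the order of the mean FPKM was Tcap (2870 ± 673, SD, n = 4), Myoz1 (1390 ± 91.9), Ldb3 (686 ± 69.9), Neb (401 ± 63.5), Csrp3 (150 ± 44.7), Xirp1 (134 ± 60.0), Ankrd2 (133 ± 44.5), Ttn (119 ± 15.2), Myoz2 (118 ± 44.9) and Ankrd1 (6.89 ± 4.83). Tcap, Myoz1, Ldb3 and Neb were separated from their neighbours in all 4 mice, as was Ankrd1 at the bottom. Csrp3, Xirp1, Ankrd2, Ttn and Myoz2 overlapped with their neighbours and were not in a fixed order. The FPKM of Ttn and Neb rests on lengths of 22023 and 7997 bases, whereas their longest annotated transcripts hold 106824 and 22489 bases. The lengths behind the FPKM of Ldb3 and Xirp1 are also shorter than the longest transcripts of these genes. Per kilobase of the longest transcript, the NOR means of Ldb3 and Neb would be 394 and 149 CPM, and Tcap, Myoz1, Ldb3 and Neb would keep the first 4 places. Xirp1, at 72.2, and Ttn, at 25.6, would move below Myoz2, at 123.

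**Figure D1:**
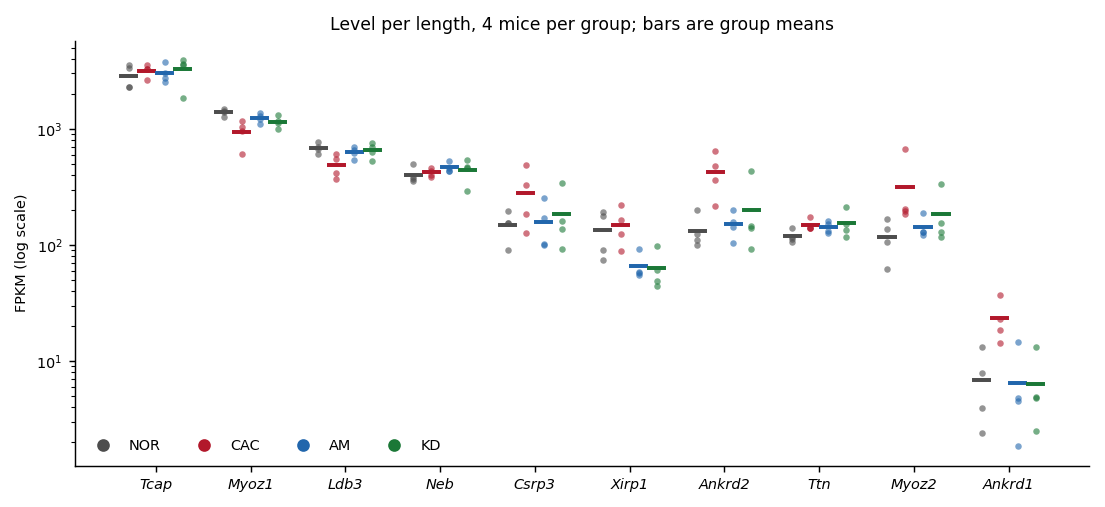
Level per length (FPKM, log scale) of the 10 genes in 4 mice per group, ordered by the NOR mean; points are mice and bars are group means. Tcap is highest, at a mean of 2870 in NOR, and Ankrd1 lowest, at 6.89 in NOR and 23.3 in CAC.

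The comparison of CAC with NOR asks how the transcripts of the Z-disc differ in the muscle of tumor-bearing mice. A gene was called at a Benjamini-Hochberg adjusted p (FDR) of at most 0.05 over all genes tested and a fold change of at least 1.5 in edgeR's quasi-likelihood test. The call passed for 1 of the 10 genes, Ankrd2, against 9.45% of the 14666 genes tested, and 4.32% of them were called higher in CAC. By unadjusted p under 0.05, 3 genes were higher in CAC (Ankrd1, Ankrd2, Myoz2) and 2 were lower (Myoz1, Ldb3), where 29.1% of all genes passed in either direction. The median log2 fold change of the 10 was 0.11, beside 0.01 over all genes tested.

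Ankrd2 (ENSMUSG00000025172, chr19:42036000-42045110, GRCm38), a titin-bound ankyrin-repeat protein, was at 247, 134, 112 and 121 CPM in NOR and at 252, 532, 320 and 664 CPM in CAC. Every CAC mouse was above every NOR mouse, though CAC replicate 1, at 252, was close to NOR replicate 1, at 247. The log2 fold change was 1.51 (SE 0.380, edgeR FDR = 0.0341), and the exact permutation test gave p = 0.0286, the smallest that 4 against 4 mice allow. The call was lost when NOR replicate 2, 3 or 4 or CAC replicate 2 or 4 was left out (edgeR FDR 0.0669 to 0.0974), with log2 fold changes from 1.25 to 1.44. In the mice labelled C57BL/6 alone the log2 fold change was 1.04, and in those labelled BABL/c alone it was 2.10, both not called.

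Ankrd1 (ENSMUSG00000024803, chr19:36111961-36120099), the cardiac ankyrin repeat protein, was at 7.97, 4.18, 23.7 and 14.0 CPM in NOR and at 26.6, 66.3, 33.1 and 31 CPM in CAC. The groups did not overlap, and CAC replicate 2 stood far above the other CAC mice. Its log2 fold change of 1.66 (SE 0.519) was the highest of the 10 but missed the call (edgeR FDR = 0.0687), while the exact permutation test gave p = 0.0286. Without NOR replicate 3 it passed the call, at 2.17 (edgeR FDR = 0.0475). It was also called by DESeq2 (adjusted p = 0.00601) and by limma-voom (adjusted p = 0.0431). By labelled strain it was 2.95 in the C57BL/6 mice and 0.80 in the BABL/c mice, an interaction of -2.09 (SE 0.745) that did not pass in edgeR (FDR = 0.970). Ankrd1 and Ankrd2 lie on the same chromosome, in separate places.

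Myoz2 (chr3:123006206-123035015), the slow-fibre calsarcin, was at 223, 161, 74.3 and 124 CPM in NOR and at 231, 242, 187 and 746 CPM in CAC. CAC replicate 4 stood far above the other CAC mice, and NOR replicate 1 lay within the CAC range. The log2 fold change was 1.26 (SE 0.507, edgeR FDR = 0.140), and 0.59 without CAC replicate 4. DESeq2 called it (adjusted p = 0.0363) and limma-voom did not (adjusted p = 0.161). By labelled strain it was 0.30 in the C57BL/6 mice and 2.25 in the BABL/c mice, an interaction of 2.00 (SE 0.849) that did not pass in edgeR (FDR = 0.998). Csrp3 (chr7:48830398-48848033), the muscle LIM protein, was at 160, 63.2, 113 and 110 CPM in NOR and at 95, 351, 107 and 220 CPM in CAC. Its groups overlapped, with CAC replicates 2 and 4 high, and its log2 fold change was 0.78 (SE 0.449, edgeR FDR = 0.297), or 0.33 without CAC replicate 2.

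Myoz1 (chr14:20649107-20656540), the fast-fibre calsarcin, was at 2150, 1820, 1820 and 1610 CPM in NOR and at 1410, 1530, 632 and 1170 CPM in CAC. All CAC mice were below all NOR mice. The log2 fold change was -0.65 (SE 0.261, edgeR FDR = 0.136), with p = 0.0286 in the exact permutation test, so that it missed the call. DESeq2 called it (adjusted p = 0.0487) and limma-voom did not (adjusted p = 0.118). Ldb3 (chr14:34526603-34588682) was at 2480, 1950, 1940 and 1700 CPM in NOR and at 1630, 1730, 841 and 1120 CPM in CAC, where only CAC replicate 2 reached the NOR range. Its log2 fold change was -0.61 (SE 0.249, edgeR FDR = 0.142). CAC replicate 3 was the lowest of all 16 mice for both genes and had the lowest muscle marker sum and fast fibre sum too. Without it the log2 fold change was -0.43 for each gene. With labelled strain as a covariate Ldb3 was called, at -0.65 (edgeR FDR = 0.0419), and Myoz1, at -0.69, was not (edgeR FDR = 0.0706).

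The ratio of Myoz1 to Myoz2 in FPKM gives these differences in a form that the scaling between libraries does not touch. It was 8.83 to 22.5 in NOR (mean 13.4 ± 6.18, SD, n = 4), 1.44 to 5.80 in CAC (3.98 ± 2.09), 5.76 to 10.5 in AM (9.01 ± 2.18) and 3.93 to 10.1 in KD (7.25 ± 2.54). NOR and CAC did not overlap. The means of AM and KD lay between, and each of these groups overlapped with both CAC and NOR.

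Over all 4 mice of each group, Xirp1, Tcap, Ttn and Neb differed by at most 0.18 (log2) between CAC and NOR. Xirp1 (chr9:120013755-120023598) was at 314, 228, 552 and 593 CPM in NOR and at 288, 388, 411 and 638 CPM in CAC, with a log2 fold change of 0.04 (SE 0.345, edgeR FDR = 0.963, 95% interval -0.75 to 0.82). Its annotated span overlaps Cx3cr1 on the same strand, at a mean of 3.34 CPM over the libraries. Tcap (chr11:98383811-98384953), the cap on the end of titin, was at 2130 to 3370 CPM in NOR and 2000 to 3400 CPM in CAC, and differed by 0.05 (SE 0.217, edgeR FDR = 0.918). By labelled strain Tcap was at 0.53 in the C57BL/6 mice and -0.39 in the BABL/c mice, in opposite directions and without overlap of CAC and NOR within either strain. That interaction of -0.86 (SE 0.326) did not pass in edgeR (FDR = 0.993). Ttn (chr2:76703980-76982547) was at 2330 to 3530 CPM in NOR and 2470 to 3620 CPM in CAC, with a log2 fold change of 0.18 (SE 0.200, edgeR FDR = 0.620). Neb (chr2:52136647-52378474) was at 2820 to 4480 CPM in NOR and 2510 to 3840 CPM in CAC, with -0.06 (SE 0.217, edgeR FDR = 0.888). The intervals of these 4 genes reached from -0.75 at the lowest to 0.82 at the highest, so that a change of 1.5-fold (0.58 on the log2 scale) lay outside the interval for Tcap and Neb, taken over both labelled strains, and inside it for Xirp1 and Ttn.

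**Figure D2:**
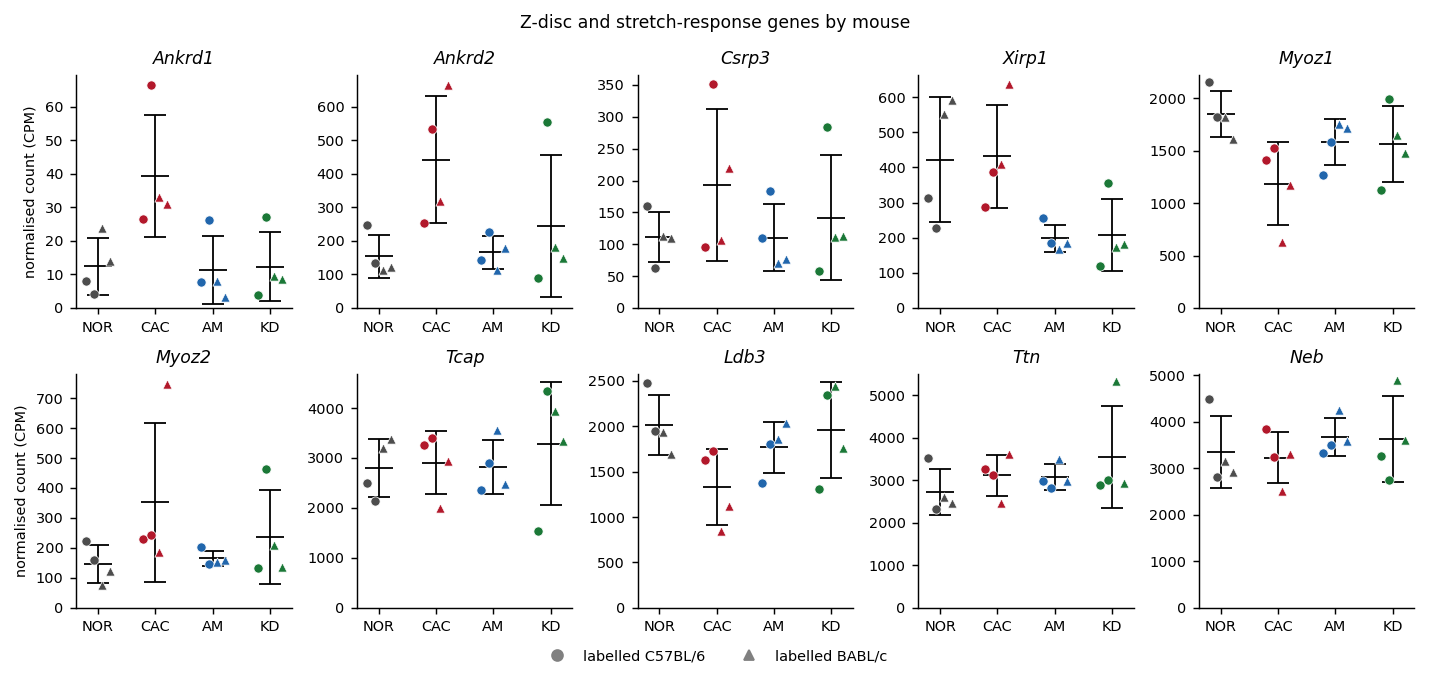
Normalised count (CPM) of each gene in each mouse, from 0; circles are mice labelled C57BL/6, triangles mice labelled BABL/c, and the bars are mean and SD of 4 mice. Ankrd1 and Ankrd2 are higher in every CAC mouse than in every NOR mouse, and KD replicate 2, a circle, is the highest KD mouse for Ankrd1, Ankrd2, Csrp3, Xirp1, Myoz1, Myoz2 and Tcap.

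The comparison of AM with CAC asks what amiloride does to these transcripts in tumor-bearing mice. It uses the same 4 CAC libraries as the comparison above, so that the opposite sign of a change in the 2 comparisons is not independent. Here 2 of the 10 genes were called, Ankrd2 and Xirp1, both lower in AM, beside 3.66% of the 14674 genes tested and 2.03% called lower in AM. By unadjusted p under 0.05, 4 genes were lower (with Ankrd1 and Myoz2) and none higher, beside 21.7% of all genes. The median log2 fold change of the 10 was -0.42, and that of all genes 0.01.

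Ankrd2 was at 143, 225, 114 and 180 CPM in AM, all below the lowest CAC mouse at 252. The log2 fold change was -1.41 (SE 0.334, edgeR FDR = 0.0497), just inside the limit, and the exact permutation test gave p = 0.0286. Xirp1 was at 256, 184, 168 and 184 CPM in AM, below all 4 CAC mice, of which the lowest was at 288. Its log2 fold change was -1.12 (SE 0.253, edgeR FDR = 0.0442), again with p = 0.0286 in the exact permutation test. Each of these calls was lost when any 1 of CAC replicates 2, 3 and 4 or any AM mouse was left out (edgeR FDR 0.0651 to 0.120 for Ankrd2 and 0.0567 to 0.116 for Xirp1), and held only without CAC replicate 1. Neither gene was called in either labelled strain alone. Both calls were also lost with labelled strain as a covariate (edgeR FDR 0.0847 for Ankrd2 and 0.0782 for Xirp1). In 1 fit of all 16 libraries they were lost too (edgeR FDR 0.133 and 0.105). Xirp1 was at -0.60 in the C57BL/6 mice and -1.60 in the BABL/c mice, an interaction of -0.99 (SE 0.394, edgeR FDR = 0.393). Ankrd2 was at -1.08 and -1.76, an interaction of -0.66 (SE 0.702, edgeR FDR = 0.717), and at -0.88 without the 4 libraries high in 1 identifier of Nnt. Markers of other tissue moved in this comparison too. Of 7 tendon genes, Tnmd (2.49), Comp (2.09) and Fmod (1.37) were called higher in AM and none lower, and their summed levels of 523 to 799 CPM in AM did not overlap with the 184 to 443 CPM of CAC. The muscle marker sum was 109000 to 141000 CPM in AM and 52600 to 123000 CPM in CAC, with none of its 8 genes called in edgeR and 2 higher at an unadjusted p under 0.05. The part of these markers in the 2 calls was not tested. In NOR the mean level was 153 ± 63.2 CPM (SD, n = 4) for Ankrd2, beside 165 ± 48.2 in AM, and 421 ± 178 CPM for Xirp1, beside 198 ± 39.5 in AM.

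Ankrd1 was at 7.70, 26.3, 8.03 and 3.37 CPM in AM, below all CAC mice, though AM replicate 2, at 26.3, was close to CAC replicate 1, at 26.6. Its log2 fold change was -1.80 (SE 0.596, edgeR FDR = 0.123), and without AM replicate 2 it was -2.62 and called (edgeR FDR = 0.0418). DESeq2 called it over all 8 mice (adjusted p = 0.0132) and limma-voom did not (adjusted p = 0.053). Myoz2 was at 202, 147, 153 and 158 CPM in AM, with a log2 fold change of -1.08 (SE 0.421, edgeR FDR = 0.181), which was -0.42 without CAC replicate 4. AM replicate 1, at 202, lay inside the CAC range of 187 to 746. Csrp3 was at 110, 184, 71.2 and 76.1 CPM in AM and differed by -0.80 (SE 0.469, edgeR FDR = 0.372), or -0.34 without CAC replicate 2, with the groups overlapping.

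Myoz1, at 1270 to 1750 CPM in AM, differed from CAC by 0.42 (SE 0.255, edgeR FDR = 0.395), and Ldb3, at 1370 to 2040 CPM, by 0.41 (SE 0.238, edgeR FDR = 0.366). Both genes overlapped with CAC. Without CAC replicate 3 the differences were 0.22 for Myoz1 and 0.26 for Ldb3. Myoz1 was at -0.03 in the C57BL/6 mice and 0.93 in the BABL/c mice, an interaction of 0.96 (SE 0.389, edgeR FDR = 0.397). Ldb3 was at -0.07 and 0.97, an interaction of 1.04 (SE 0.278, edgeR FDR = 0.326), so that neither difference between the labelled strains passed. Tcap differed by -0.04 (SE 0.202, edgeR FDR = 0.938), Ttn by -0.02 (SE 0.153, edgeR FDR = 0.960) and Neb by 0.19 (SE 0.161, edgeR FDR = 0.556). All 4 AM mice lay within the CAC range for Ttn, and 3 of 4 for Tcap and for Neb.

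The comparison of KD with CAC asks the same of mice whose tumor cells had Rab27 knocked down, and again shares the CAC libraries. None of the 10 genes was called in edgeR's quasi-likelihood test, beside 0.00685% of the 14593 genes tested, and 2 genes, Ankrd1 and Xirp1, had an unadjusted p under 0.05, beside 11.1% of all genes. DESeq2 and limma-voom also called none of the 10. The median log2 fold change of the 10 was -0.15.

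Ankrd1 was at 3.9, 27.2, 9.60 and 8.51 CPM in KD, and its log2 fold change was -1.68 (SE 0.572, edgeR FDR = 0.351). KD replicate 2 was inside the CAC range, and the other 3 KD mice were below it. Xirp1 was at 119, 355, 173 and 183 CPM in KD, with a log2 fold change of -1.06 (SE 0.371, edgeR FDR = 0.360), and again only KD replicate 2 overlapped with CAC. Ankrd2, at 88.9, 555, 183 and 150 CPM, differed by -0.86 (SE 0.572, edgeR FDR = 0.630). KD replicate 2 was the highest of the KD mice for Csrp3 (284 CPM) and Myoz2 (464 CPM) too, where the other 3 mice were at 57.9 to 113 and 133 to 208 CPM. Csrp3 differed by -0.45 (SE 0.561, edgeR FDR = 0.842) and Myoz2 by -0.58 (SE 0.564, edgeR FDR = 0.782). The interaction with labelled strain (BABL/c minus C57BL/6) was -1.82 for Myoz2 (SE 1.09, edgeR FDR = 0.866) and -1.32 for Ankrd2 (SE 1.18, edgeR FDR = 0.878). For Xirp1 it was -1.09 (SE 0.728, edgeR FDR = 0.866), so that none of these passed.

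Without KD replicate 2 the log2 fold changes were -2.43 for Ankrd1, -1.67 for Ankrd2, -1.46 for Xirp1, -1.16 for Myoz2 and -1.05 for Csrp3, and none was called (edgeR FDR 0.0715 to 0.356). Other libraries moved the values the other way. Myoz2 was at 0.09 without CAC replicate 4, and Csrp3 at 0.01 without CAC replicate 2 and -0.19 without KD replicate 1. Myoz2 was also smaller in size without KD replicate 4, at -0.38, while Ankrd1, Ankrd2 and Xirp1 were at negative values whichever 1 mouse was left out. KD replicate 2 had the trend against long transcripts given above. With offsets for that trend and all 4 KD mice, the log2 fold changes were -1.70 for Ankrd1, -1.05 for Xirp1, -0.92 for Ankrd2, -0.62 for Myoz2 and -0.49 for Csrp3, each within 0.1 of the value without the offsets. The same library had the highest slow fibre sum of the 16 (7910 CPM) and a tendon sum of 271 CPM, and the part of these sums in the result was not tested.

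Myoz1, at 1120 to 1990 CPM in KD, differed from CAC by 0.39 (SE 0.304, edgeR FDR = 0.697), and Ldb3 by 0.56 (SE 0.299, edgeR FDR = 0.539). Tcap, at 1540 to 4350 CPM, was the most spread of the abundant genes and differed by 0.18 (SE 0.338, edgeR FDR = 0.918). Ttn differed by 0.18 (SE 0.262, edgeR FDR = 0.879) and Neb by 0.16 (SE 0.241, edgeR FDR = 0.879). KD replicate 3, at 5340 CPM for Ttn and 4900 CPM for Neb, was above all 15 other mice in both.

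**Figure D3:**
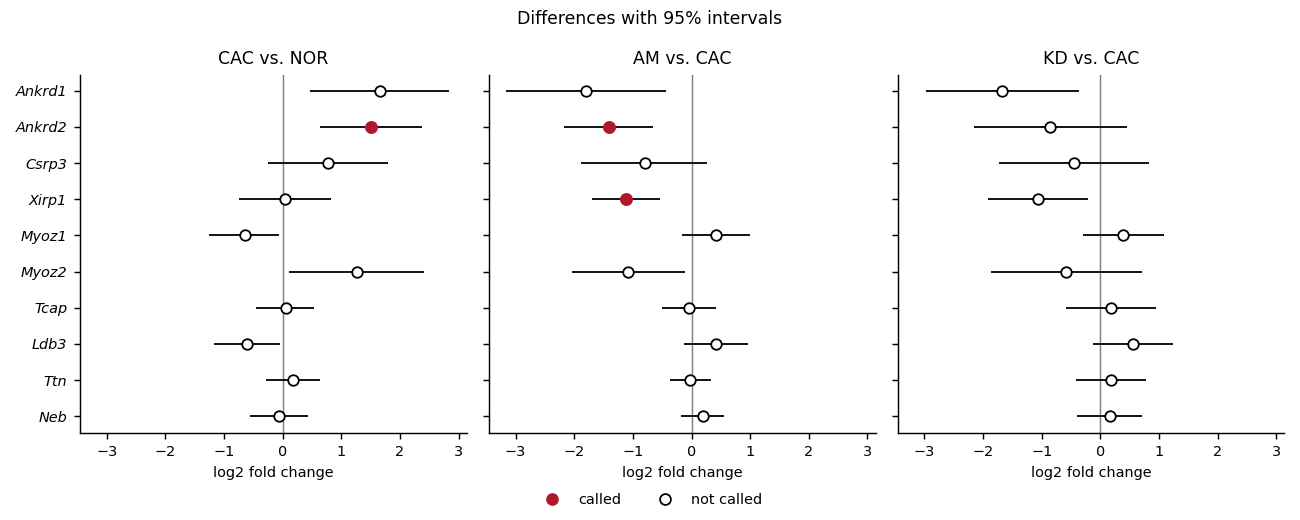
Log2 fold change of each gene with its 95% interval in the 3 comparisons; filled points were called and open points were not. Ankrd2 is called in CAC vs. NOR (1.51) and in AM vs. CAC (-1.41), Xirp1 in AM vs. CAC (-1.12), and no gene in KD vs. CAC.

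Against NOR, none of the 10 genes was called in AM (0% of 14738 genes were called, 9.19% had an unadjusted p under 0.05) or in KD (0% of 14748 genes, 3.54% by unadjusted p) in edgeR's quasi-likelihood test. The log2 fold changes reached from -1.08 to 0.19 in AM and from -1.02 to 0.69 in KD. Xirp1 was the only gene of the 10 with an unadjusted p under 0.05, in each: it was 1.08 lower on the log2 scale in AM (SE 0.306, edgeR FDR = 0.518) and 1.02 lower in KD (SE 0.409, edgeR FDR = 0.999). NOR replicates 3 and 4 (labelled BABL/c, 552 and 593 CPM) were above all AM and KD mice, while NOR replicate 1, at 314 CPM, lay within the KD range and NOR replicate 2, at 228 CPM, within both.

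Some of the 10 genes followed each other over the 16 mice. These are descriptions of 16 libraries that share depth and composition, given as Pearson's r of log2 CPM. Myoz1 and Ldb3 had r = 0.940, and 0.929 after subtraction of the group means. Ankrd2 had r = 0.841 with Myoz2 and 0.828 with Csrp3, which were 0.779 and 0.843 within groups. KD replicate 2 was far above the other KD mice for all of these genes, and r without it was not computed. Ttn and Neb had r = 0.816 (0.882 within groups), and Ankrd1 and Csrp3 r = 0.770 within groups as over all. Myoz1 and Myoz2 had r = -0.099 over all mice and 0.394 within groups, and Ankrd1 and Ankrd2 had 0.701 and 0.472. For genes outside the list r is over all mice only, so that differences between groups enter it. Among 13200 genes outside the list with a mean of at least 1 CPM, the most like Ankrd2 were Hspb7 (r = 0.968), a small heat shock protein of striated muscle, Phb2 (0.942) and 2310039H08Rik (0.935). The most like Ankrd1 were Mustn1 (r = 0.901), Cd63 (0.851) and Dctn2 (0.851), and the most like Myoz1 were Rpl3l (r = 0.957), Phpt1 (0.951) and Bin1 (0.948), a protein of the T-tubules.

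**Figure D4:**
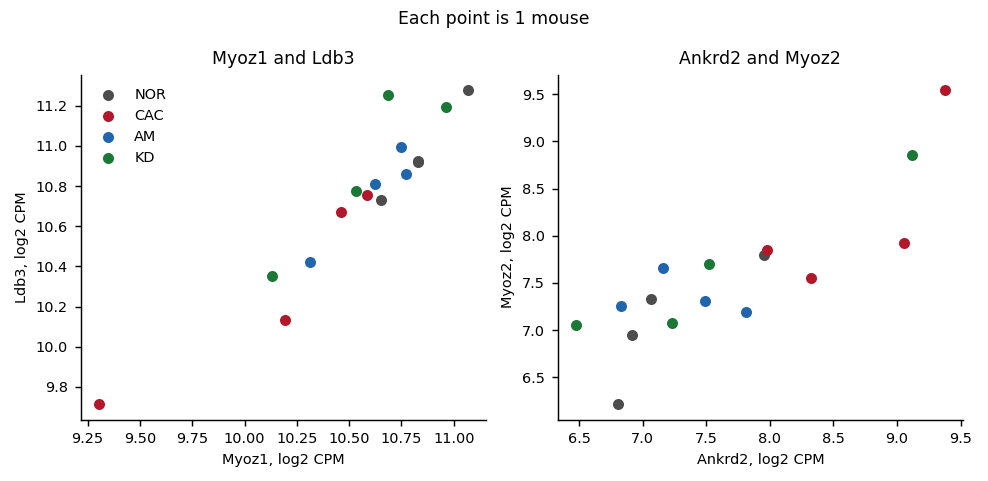
Log2 CPM of Ldb3 against Myoz1 (left) and of Myoz2 against Ankrd2 (right); each point is 1 of 16 mice, coloured by group. CAC replicate 3 is the lowest point on the left, and CAC replicate 4 is the highest on the right.

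The other genes of the Z-disc were read from a list of 30. In CAC, 5 were called higher and 2 lower than NOR, beside 9.45% of all genes tested. The median of the list was 0.17 on the log2 scale, and that of all genes 0.01. Des (desmin, which links Z-discs sideways) was 1.05 higher on the log2 scale (SE 0.191, edgeR FDR = 0.0117), Nrap, a LIM-nebulin protein of sarcomere assembly, was 1.01 higher (SE 0.192, edgeR FDR = 0.0137) and Hspb7 was 1.42 higher (SE 0.276, edgeR FDR = 0.0146). Myoz3, the third calsarcin, fell by 2.41 on the log2 scale (SE 0.420, edgeR FDR = 0.0104), from a mean of 54.8 to 10.4 CPM. In AM, 6 of the 30 were called lower and 1 higher than CAC, beside 3.66% of all genes tested. Des differed by -0.92, Nrap by -0.99 and Hspb7 by -1.22, while Myoz3 differed by 2.10. In KD none of the 30 was called, where 0.00685% of all genes tested were called.

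Of 19 genes of the M-band and of titin signalling, 2 were called higher in CAC and 3 lower, beside 9.45% of all genes tested. Trim63, the MuRF1 ubiquitin ligase that binds titin, was 2.50 higher (SE 0.259, edgeR FDR = 0.00214), the methyltransferase Smyd2 differed by 0.78, Smyd1, a methyltransferase needed for thick filament assembly, by -1.03, and Ank1, an ankyrin, by -1.34. In AM, Trim63 (-2.42) and Smyd2 (-0.87) were called lower than CAC, beside 3.66% of all genes tested. Of 14 genes that set thin-filament length or partner nebulin, 1 was called higher in CAC and 2 lower, beside the same 9.45%. Lmod2, a leiomodin that elongates thin filaments, was 1.25 higher in CAC (SE 0.225, edgeR FDR = 0.0117), and Lmod3 and Kbtbd13 were lower, at -0.68 and -1.48. Lmod2 was also called lower in AM than in CAC, at -1.49.

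Of 20 genes listed for YAP, TEAD and stretch signalling, 1 was called higher in CAC and 2 lower, beside 9.45% of all genes tested. The higher gene was Myf6, a myogenic factor rather than a YAP or TEAD gene, at 1.22 (SE 0.117, edgeR FDR = 0.00195). Egr1 differed by -2.11 (SE 0.194, edgeR FDR = 0.00191) and Mkl1, a cofactor of serum response factor, by -1.44 (SE 0.210, edgeR FDR = 0.00559). Only Myf6 was called in AM against CAC, at -1.62, beside 3.66% of all genes tested. The median of the list was 0.12 in CAC.

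The fibre type lists were read beside the calsarcins. Over all genes tested, 9.45% were called in CAC against NOR, 3.66% in AM against CAC and 0.00685% in KD against CAC. None of the 10 slow fibre genes was called in CAC (0 by unadjusted p under 0.05, edgeR), with summed levels of 1320 to 3870 CPM in CAC and 1660 to 3910 CPM in NOR. Of 12 fast fibre genes, Casq1 (-2.26) and Myl1 (-1.80) were called lower in CAC, and the sums were 63100 to 136000 CPM in CAC and 117000 to 166000 CPM in NOR. Of the 12, 10 were lower and 2 higher, with 5 lower and 0 higher at an unadjusted p under 0.05 in edgeR and a median of -0.48. Of 11 embryonic and denervation genes, 10 were tested, and Musk (0.93) and Myog (1.22) were called higher. Of 7 tendon genes, 4 were called lower in CAC, among them Tnmd (-3.38), and none higher. The summed levels of the 7 of 184 to 443 CPM did not overlap with the 659 to 1030 CPM of NOR. None of the adipocyte, macrophage and lymphocyte genes was called in edgeR, with 2 macrophage genes higher at an unadjusted p under 0.05 and none in the other lists; the genes with the lowest p were Fabp4 (0.71, edgeR FDR = 0.207), C1qb (0.69, edgeR FDR = 0.109) and Cd4 (-1, edgeR FDR = 0.710), and for the slow fibre list Myl3 (-0.78, edgeR FDR = 0.217). Of 6 smooth muscle genes, Smtn was called lower (-0.93) and Des, also a Z-disc gene, higher. In the muscle marker list 1 of 8 genes was called, Ckmt2 (-1.30). All 8 were lower in CAC, 4 of them at an unadjusted p under 0.05 in edgeR, with a median of -0.76. In AM against CAC, Casq1 was called higher (1.72) among the fast fibre genes, whose sums were 101000 to 137000 CPM in AM. Des was called lower (-0.92) among the smooth muscle genes, whose sums of 3720 to 4060 CPM in AM lay below the 5530 to 8370 CPM of CAC. Des alone was at a mean of 3330 ± 236 CPM in AM and 6340 ± 1140 CPM in CAC (SD, n = 4 each). In KD against CAC none of the 7 tendon genes was called in edgeR, with 3 higher at an unadjusted p under 0.05 and sums of 271 to 717 CPM in KD. The part of tendon or other tissue in the differences above was not tested.

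**Figure D5:**
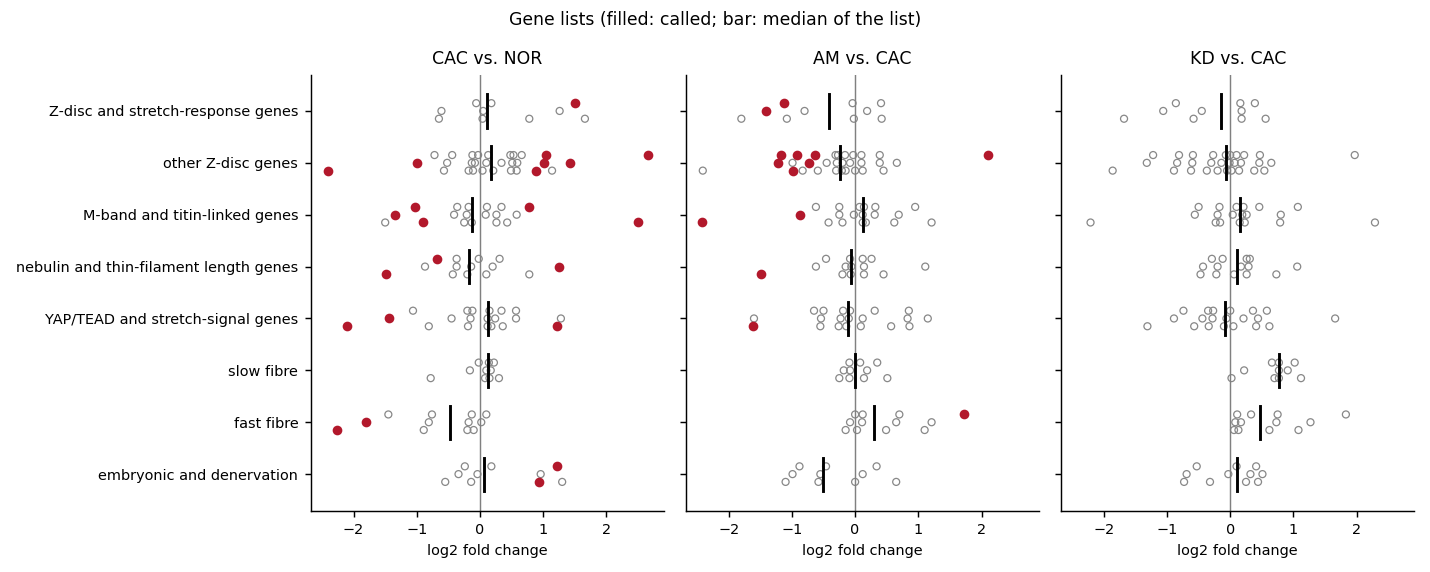
Log2 fold change of each gene in 8 lists, with 1 panel for each main comparison; red points were called, open points were not, and the bar is the median of the list. In CAC vs. NOR, Trim63 (2.50) is among the highest red points and Myoz3 (-2.41) is the lowest, and in KD vs. CAC there are no red points.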

How the data were processed

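Gastrocnemius RNA of 16 mice, enriched with oligo(dT) beads, was sequenced by the authors, who deposited raw read counts per gene and FPKM. The submitters' processing notes name fastp, Bowtie2, HISAT2 and StringTie 1.3.1 and the builds mm9 and GRCm38 with no role; the counting tool, annotation and strand setting are not given in the sources used here. The authors' test, NOISeq, was not run here. Counts as deposited were tested in R 4.3.3 with edgeR 4.0.16 (TMM, filterByExpr with a minimum count of 10 and total of 15, quasi-likelihood F test, 2 groups per fit), after a check on simulated data. The call needed an FDR (Benjamini-Hochberg) no higher than 0.05 and a 1.5-fold change. Exact permutation tests were two-sided, unadjusted. CPM are TMM-scaled over all 16 libraries, and each library was taken as a separate mouse. The 95% intervals are those of the log2 fold change between groups, with an SE derived from the log2 fold change and its F statistic. The alternatives tried are given with the limits, with DESeq2 1.42.0 and limma 3.58.1 among them. Implied lengths are counts divided by the deposited FPKM. Positions come from GENCODE (GRCm38). At most 0.489% of the 31-base words of any of the 10 genes also occurred in another gene. The 10 genes and the lists were chosen with earlier results of these data known. All 10 genes are named; other lists give at most 4 called genes with the lowest p in CAC vs. NOR, or the lowest uncalled gene.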

Additional observations from a re-analysis of the deposited data

Results flagged for a closer look

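Within groups of 4 mice, a mouse was marked when its gap to the nearest other mouse took up most of the range of its group (Dixon's 95% value). Of 40 groups, 10 genes by 4 conditions, 4 were marked, and chance marks about 1 in 20 groups. Ankrd1 was at 66.3 CPM in CAC replicate 2, Ankrd2 at 247 CPM in NOR replicate 1, Myoz2 at 746 CPM in CAC replicate 4, and Ttn at 5340 CPM in KD replicate 3. Between labelled strains, Tcap was higher in CAC than in NOR in the C57BL/6 mice and lower in the BABL/c mice, without overlap. Each labelled strain holds only 2 mice per group and all 10 genes were scanned. How often chance gives this pattern was not computed. The difference between the strains for Tcap did not pass. Its interaction was -0.86 on the log2 scale (BABL/c minus C57BL/6, SE 0.326, edgeR FDR = 0.993).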

How the results depend on the processing

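Log2 fold changes of the 10 genes were read under 25 alternatives per comparison. Of 750 values 661 kept direction and side of the limit, 44 lost the call, 8 gained it and 37 changed sign, and the cause was not tested. The alternatives that changed only the fold limit reused the main fit, so that their log2 fold changes could not move and add to the values kept. In CAC vs. NOR (1 called), 4 genes were called by DESeq2 (Ankrd1, Ankrd2, Myoz1 and Myoz2), 2 by limma-voom (Ankrd1 and Ankrd2), 2 with labelled strain as a covariate (Ankrd2 and Ldb3), and 0 in 1 fit of all 16 libraries, with the replicate block, in either labelled strain alone and without the 4 libraries high in 1 identifier of Nnt, chosen after seeing the data. In this comparison CAC replicate 4 is the only mouse among those 4 libraries, so that the fit without them is the fit without that mouse. Leaving out 1 mouse gave 0 to 1. In AM vs. CAC (2 called), 3 were called by DESeq2 (Ankrd1, Ankrd2 and Xirp1), 1 was called with RLE factors, total counts only, no count filter, limma-voom, robust estimation or length-trend offsets, and 0 with upper-quartile scaling, all 16 libraries, the strain covariate, the replicate block, either strain alone or without the 4 libraries. Leaving out 1 mouse gave 0 to 2. Scaling to total counts alone shifted the median of all genes to 0.14 in CAC vs. NOR and -0.11 in KD vs. CAC.

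The deviations of same-numbered mice had r of 0.601, 0.130, 0.338 and -0.189 in CAC vs. NOR and -0.453 to 0.045 in AM vs. CAC. As r was not above 0.1 in every pair, the numbers were not taken to pair the mice. With the replicate block Ankrd2 was at 1.52 in CAC vs. NOR (edgeR FDR = 0.0833). It changed no count in KD vs. CAC or against NOR.

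Values that changed sign were these. In CAC vs. NOR, with upper-quartile scaling Tcap was 0.00 and Xirp1 -0.02, with total counts Neb was 0.07, in BABL/c mice alone Tcap was -0.39 and Xirp1 -0.10, and without the 4 libraries Xirp1 was -0.21. Leaving out 1 mouse gave -0.07 to 0.19 for Tcap, -0.21 to 0.23 for Xirp1 and -0.15 to 0.14 for Neb. In AM vs. CAC, upper-quartile scaling gave Tcap 0.01 and Ttn 0.03, length-trend offsets Tcap 0.03, C57BL/6 mice alone Myoz1 -0.03, Ldb3 -0.07 and Neb -0.04, and BABL/c mice alone Tcap 0.27 and Ttn 0.07. Leaving out 1 mouse gave -0.17 to 0.05 for Tcap and -0.11 to 0.06 for Ttn. In KD vs. CAC, C57BL/6 mice alone gave Myoz2 0.36, Tcap -0.15, Ttn -0.08 and Neb -0.21, and without the 4 libraries Myoz2 was 0.29. Leaving out 1 mouse gave -1.05 to 0.01 for Csrp3, -1.16 to 0.09 for Myoz2, -0.08 to 0.28 for Ttn and -0.01 to 0.27 for Neb.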
